A study of Mus musculus with 9 samples.

Results

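Lysosomal hydrolases, the receptors and coats that deliver them, and the membrane proteins of the lysosome were examined in RAW264.7 cells that had been driven toward the osteoclast fate with or without uridine (UD). The members were the genes that the deposited annotation assigns to the lysosome pathway, leaving out the cathepsins, the vacuolar ATPase subunits and 9 further genes (Acp5, Tcirg1, Clcn7, Mcoln1, Cd68, Npc1, Npc2, Slc11a1 and Slc11a2). This rule gave 135 genes of the 177 in the pathway and of 56691 in the table. The same annotation placed 23 of the 135 in glycosaminoglycan degradation, and these were set against the other 112. Of the 135 members, 94 reached an FPKM (reads scaled for gene length and library size) of at least 1 in at least 3 libraries and were tested, namely 18 glycosaminoglycan-degrading and 76 other members. Among the 41 that were not tested, 24 had no read in any library, 27 were pseudogenes or predicted genes, and no library exceeded an FPKM of 1. The hyaluronidase genes Hyal4, Hyal5, Hyal6 and Spam1 were at 0 throughout.

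RAW264.7, a macrophage line established from a virus-induced mouse tumour, forms osteoclast-like cells under RANKL, the cytokine that commits myeloid precursors to bone resorption. RNA was sequenced in 3 libraries of untreated cells (control), 3 of cells given RANKL, and 3 of cells given RANKL together with UD, all at day 3. No allele or transgene distinguished the groups, all 9 libraries came from this single line, and no library of cells given UD without RANKL was analysed. The UD dose of these libraries is not given in the sources used here, and the labels call the libraries of a group replicate samples without saying whether they were separate cultures, so that adjusted p-values measure the spread between these libraries.

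The lysosome is the acidic compartment in which macromolecules are broken down. Most of its hydrolases are made in the endoplasmic reticulum, tagged with mannose 6-phosphate in the Golgi apparatus, and carried to the lysosome by mannose 6-phosphate receptors through clathrin coats and adaptor complexes. Glycosaminoglycans such as hyaluronan, heparan sulfate, dermatan sulfate and keratan sulfate are long sugar chains of the extracellular matrix, and they are dismantled stepwise by endoglycosidases, exoglycosidases, sulfatases and an acetyltransferase. Osteoclasts direct lysosome-like vesicles to the bone surface and secrete their content into the resorption space, whereas macrophages use lysosomes to digest what they engulf.

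The libraries held 15951800 to 19746862 counted reads. Of the 10 osteoclast markers, 9 were tested, and each rose with RANKL (median log2 fold change 5.35) and fell with UD (median -0.86), their summed FPKM being 57.6 to 60.3 in control, 2715 to 2920 with RANKL and 1724 to 1761 with RANKL + UD. Ctsk, the collagen-cleaving cathepsin of osteoclasts, went from 8.34 to 1491 and 869 FPKM on average, while Calcr was at 0 in every control library and at most 0.49 FPKM in any library. The marker Itgb3 passed the filter only through its RANKL libraries. Of the 10 macrophage markers, 8 were tested, of which 7 fell with RANKL and Cd68, itself a lysosomal membrane protein, rose. Mertk and Mrc1 did not pass the filter. With UD against RANKL, 5 of the 8 fell, 2 were not called and Adgre1 rose (log2 fold change 0.22). The summed FPKM of the macrophage markers was 9553 to 10158 in control, 2520 to 2764 with RANKL and 2203 to 2338 with RANKL + UD. Lyz2 made up most of it, at 8000, 1431 and 1285 FPKM on average in the same order. In such bulk RNA, a smaller number of cells of one type and less RNA per cell cannot be told apart, and the part of these marker shifts in the results that follow was not tested.

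The transcription factors of the MiT/TFE family bind an E-box, CACGTG, and the longer palindrome TCACGTGA is the core of the element by which they are known to act on lysosomal genes. In windows from 250 bases before to 50 bases after the RefSeq transcript start (GRCm38.p6), which were given for 71 of the 94 tested members, CACGTG occurred on either strand in 16 members (22.5%) against 8.09% of 27025 genes. The palindrome, whose 6 central letters are the E-box so that every gene with it also counts for the shorter motif, occurred in 6 members (8.45%) against 1.12% of all genes. The 27025 genes were not limited to tested ones, as the members were. The share among all tested genes was not computed, so these contrasts do not compare like sets. The 6 members with the palindrome were Cd164, Cln3, Gla, Gnptg, Igf2r and Sumf1. None of the 12 glycosaminoglycan-degrading members with a window held the palindrome, and 3 of them (Glb1, Naglu and Sgsh) held CACGTG. A 30-base stretch around the palindrome of Sumf1 would run past the transcript start and is not shown, and that of Gnptg was left out. Sumf1 was called lower with RANKL (log2 fold change -0.19) but not with UD against RANKL (-0.12). Gnptg was not called in either comparison (-0.11 and -0.03). The 30-base stretches below, with the palindrome in capitals, are of the other 4 genes, which differed in how they responded to RANKL and UD.
Cd164, chr10:41519401-41519430, plus strand: cgccgggctgcTCACGTGAccggcgcgcgc
Cln3, chr7:126583340-126583369, minus strand: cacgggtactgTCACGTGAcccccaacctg
Gla, chrX:134601215-134601244, minus strand: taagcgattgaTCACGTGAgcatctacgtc
Igf2r, chr17:12769737-12769766, minus strand: gaacgaggacgTCACGTGAgcaggaggcgg
The palindrome began at -88, -122, -228 and -49 relative to the RefSeq start in Cd164, Cln3, Gla and Igf2r, in that order. By GENCODE, the Cd164 and Cln3 stretches lie at least partly within the gene. With RANKL, Gla and Igf2r rose while Cd164 rose by 0.18 on the log2 scale and Cln3 was not called, the Cd164 call being lost under total counts and by limma. With UD against RANKL, Gla and Cln3 fell, Igf2r was called lower with libraries that overlapped in FPKM, and Cd164 rose. Apobr lies on the strand opposite to Cln3, and reads of this pair cannot be separated here. With RANKL, Apobr was at 74.2 FPKM on average and Cln3 at 8.49. Apobr rose with RANKL (0.75) and fell with UD against RANKL (-0.31). The motif matches are descriptions of letters and not of binding. Of the factors themselves, Mitf rose from 27.2 ± 0.77 to 43.9 ± 1.29 FPKM with RANKL and fell to 30.7 ± 1.2 with UD (SD, n = 3 libraries, log2 fold changes 0.78 and -0.60, adjusted p = 1.27e-11 and 4.99e-09 by edgeR's quasi-likelihood test). Tfeb and Tfe3 fell with RANKL (log2 fold changes -0.88 and -0.29), and Tfe3 fell further with UD (-0.19) whereas Tfeb was not called (-0.27). Tfec was not called in either comparison (-0.34 with RANKL and 0.38 with UD against RANKL).

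In FPKM, the summed level of the members differed little between the groups while its make-up shifted. All members together summed to 3395 ± 128 FPKM in the control libraries, 3391 ± 50.0 in those with RANKL alone and 3318 ± 39.5 in those with UD as well (SD, n = 3), and the libraries of the 3 groups overlapped. Glycosaminoglycan-degrading members held 17.1, 17.2 and 17.6% of this sum in the control libraries, 23.3, 23.7 and 23.9% in the RANKL libraries, and 20.1, 20.7 and 20.5% in the RANKL + UD libraries. The share was thus highest in all 3 RANKL libraries and lowest in all 3 control libraries, and the groups did not overlap. The membrane proteins summed to 926 ± 45.2, 728 ± 16 and 783 ± 5.86 FPKM in the same order of groups, and Lamp1 alone went from 384 to 281 and 334 FPKM. With UD against RANKL, 4 of the 15 tested membrane proteins rose and 5 fell, with a median log2 fold change of -0.01. The 5 mannose 6-phosphate sorting members summed to 159 ± 2.36, 283 ± 5.03 and 321 ± 5.06 FPKM. The second of these steps came mostly from M6pr (144 to 194 FPKM), and Gnptab and Igf2r were lower with UD. The peptidases, nuclease and phosphatase summed to less at each step, from 344 ± 28.5 to 205 ± 4.28 and 162 ± 1.77 FPKM. These falls came mostly from Lgmn (241 to 109 and 75.5 FPKM), and the median log2 fold change of the role was 0.06 with RANKL and -0.33 with UD against RANKL. These sums are descriptions without a test, and they weigh genes by their level. FPKM is scaled to total counts only and leaves out the further scaling of the tests. Those factors (TMM) were 0.959 to 0.963 in the RANKL libraries and 1.01 to 1.03 in the others. Under them the RANKL sums would stand higher relative to the other groups, so that overlap between groups depends on the scaling.

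**Figure D1:**
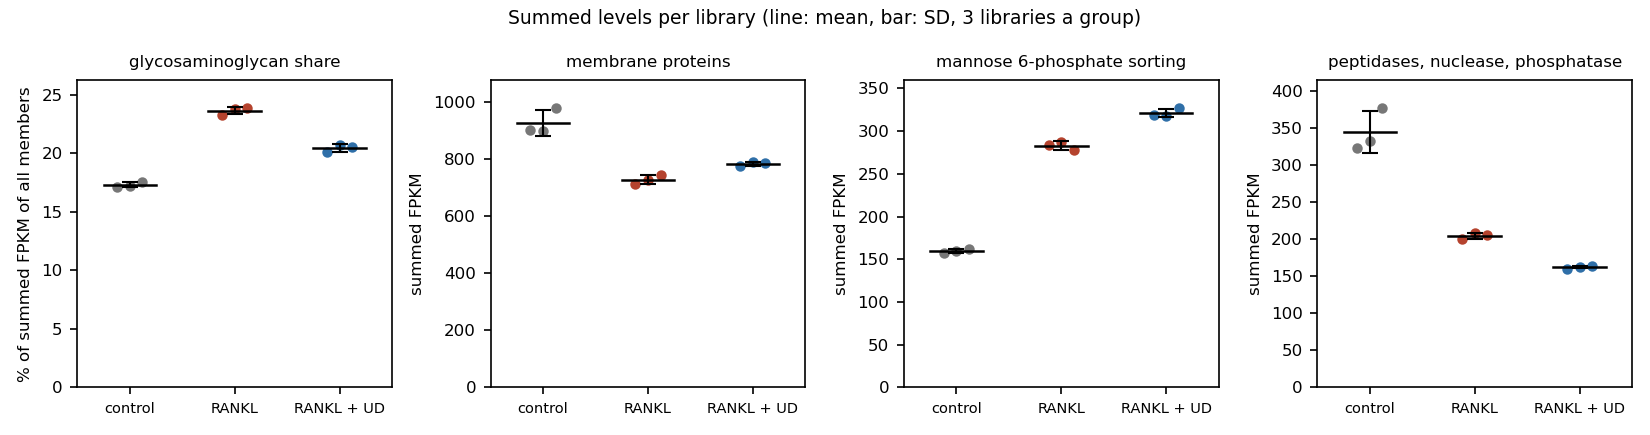
The 4 panels show, for each of the 9 libraries, the percentage of the summed FPKM of all members held by the glycosaminoglycan-degrading members and the summed FPKM of 3 other roles, with points for libraries, a line for the mean and a bar for the SD. The glycosaminoglycan share was 17.1 to 17.6% in control, 23.3 to 23.9% with RANKL and 20.1 to 20.7% with RANKL + UD.

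The first comparison asked how the lysosomal genes differed between cells given RANKL and control cells. Of the 94 tested members, 35 rose and 26 fell at an adjusted p under 0.05, against 27.3% of all 11995 tested genes higher and 30.2% lower. In percent, 37.2 of the members rose and 27.7 fell, and their median log2 fold change was 0.04 against -0.03 over all tested genes. Under total counts without further scaling the split was 31 higher and 35 lower, and the share of all calls that were higher went from 47.5 to 36.9%. The glycosaminoglycan-degrading members stood apart in these counts, with 14 of 18 higher, 1 lower and a median of 0.56, whereas the other 76 divided into 21 higher and 25 lower with a median of -0.08. Of the 18, 15 were named enzymes of glycosaminoglycan breakdown, and 3 (Naa80, Tmem202 and Tmppe) were neighbours that overlap such enzymes and carry the same annotation. Without these neighbours, 11 of 15 rose and 1 fell, with a median of 0.42. Libraries of the 2 groups did not overlap in FPKM for 69 of the 94 members and for 7403 of all 11995 tested genes.

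Hyaluronidases, the endoglycosidases that cut hyaluronan, showed the largest rises among the named enzymes of glycosaminoglycan breakdown. Hyal1 (chr9:107576927-107581710 in GRCm38, plus strand), the lysosomal hyaluronidase, was at 3.68, 3.43 and 2.9 FPKM in control and at 22, 22 and 21.6 FPKM with RANKL. Every RANKL library lay far above every control library, and the level was 6.93-fold higher (log2 fold change 2.79, SE 0.08, adjusted p = 3.36e-17). Hyal2, which is anchored at the cell surface, rose from 2.18 ± 0.38 to 6.0 ± 0.28 FPKM (log2 fold change 1.55). Hyal3 and Naa80 overlap Hyal1 and each other on the same strand, and the counts of these 3 genes may be split between them in ways that cannot be checked here. Hyal3 rose from 0.42 ± 0.06 to 1.63 ± 0.09 FPKM (log2 fold change 2.04) on 65 reads at most in a RANKL library. It passed the filter only through the RANKL libraries, being at most 0.47 FPKM in control and 1.01 with RANKL + UD, so its rise carries little weight. Without the filter, again 14 glycosaminoglycan-degrading members rose and 1 fell. Naa80, an actin acetyltransferase, rose by 2.31 on the log2 scale.

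Among the exoglycosidases that trim the chain ends, Hexa, Glb1, Idua and Gusb rose by less than Hyal1, and Naglu was not called. Hexa encodes the alpha subunit of beta-hexosaminidase A, which removes terminal N-acetylhexosamine from glycosaminoglycans and from GM2 ganglioside. Hexa (chr9:59539540-59565109, plus strand) was at 204, 210 and 219 FPKM in control and at 254, 264 and 277 FPKM with RANKL (log2 fold change 0.42, SE 0.05, adjusted p = 3.19e-07). It was higher in each RANKL library than in any control library. The gene for the GM2 activator, Gm2a, which lifts the ganglioside out of the membrane for this enzyme and was counted among the lipid-hydrolysis members, rose more steeply, from 25.1 ± 0.53 to 78.4 ± 3.47 FPKM (3.32-fold, log2 fold change 1.73). Glb1, the beta-galactosidase that acts on keratan sulfate and GM1 ganglioside, rose from 17.9 ± 1.55 to 36.8 ± 1.31 FPKM (log2 fold change 1.13). Tmppe lies inside it on the same strand and was called higher (0.45), a call lost under total counts and by limma. Tmem202, on the strand opposite to Hexa, was at no more than 3.31 FPKM in any library and rose by 1.19 on the log2 scale. Whether counting used the strand is not given in the sources used here, so reads of such pairs cannot be separated.

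Enzymes of heparan sulfate and of the sulfated chains moved less and in both directions. Idua, the alpha-iduronidase of heparan and dermatan sulfate, rose from 3.73 ± 0.33 to 5.59 ± 0.47 FPKM (log2 fold change 0.67). Sgsh, the heparan N-sulfatase, Gusb, the beta-glucuronidase, and Arsb, the N-acetylgalactosamine-4-sulfatase, rose by 0.25, 0.21 and 0.19 on the log2 scale. These 3 small changes were not called by limma on log2(FPKM + 1), and those of Sgsh and Arsb were not called under total counts either. Ids, the iduronate-2-sulfatase, was the exception among the 18, falling from 17.8 ± 0.80 to 14.8 ± 0.47 FPKM (log2 fold change -0.18, adjusted p = 0.00957). Naglu, Hgsnat and Galns were not called, at log2 fold changes of 0.15, -0.15 and 0.01. Without control replicate 3, in which Naglu stood at 15.9 FPKM against 9.94 and 12.1 in the other control libraries, Naglu was called higher (0.34, adjusted p = 0.00561 by edgeR's quasi-likelihood test).

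**Figure D2:**
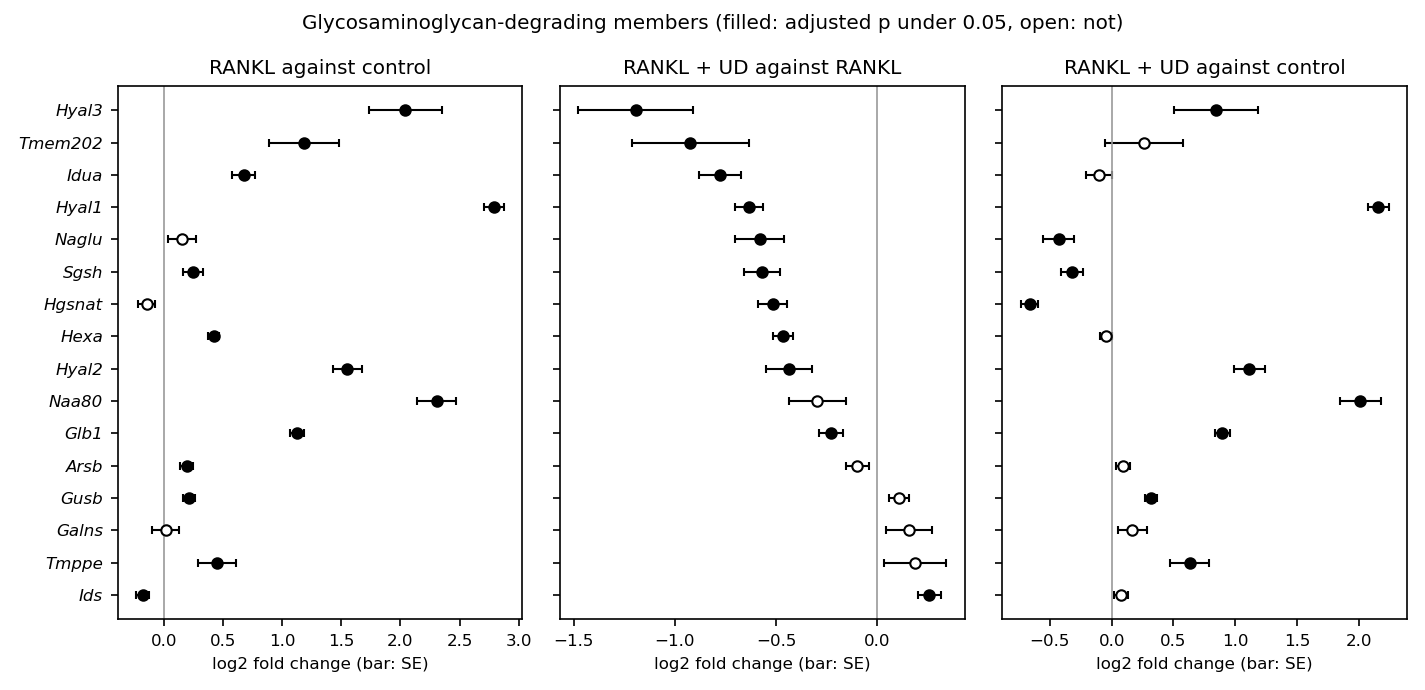
Log2 fold change with its SE for 16 of the 18 tested glycosaminoglycan-degrading members in the 3 comparisons, from edgeR's fit to 9 libraries, with filled points for an adjusted p under 0.05. The 2 members whose single results are not reported here are not drawn, although they enter the counts over all 18. With RANKL 12 points lay to the right of 0 and were filled, with UD against RANKL 10 lay to the left and were filled, and Ids moved opposite to most in both.

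Other glycosidases divided differently, with 2 of 11 higher and 6 lower. Gla, the alpha-galactosidase of globotriaosylceramide, rose from 13.3 ± 0.31 to 22.2 ± 0.71 FPKM (log2 fold change 0.83), and Manba, a beta-mannosidase, rose by 0.55 on the log2 scale. Man2b1 (chr8:85083270-85098282, plus strand), the lysosomal alpha-mannosidase that trims N-glycans, was at 16.2, 18.0 and 18.4 FPKM in control and at 6.33, 6.36 and 6.98 FPKM with RANKL. Its groups were far apart, and it fell by 1.33 on the log2 scale (SE 0.06, adjusted p = 9.41e-14). The fucosidase Fuca1 and the sialidase Neu1 also fell (log2 fold changes -0.57 and -0.57). Gaa, the glucosidase of glycogen, was not called (-0.12).

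Lipid-hydrolysis members, 3 higher and 3 lower of 8, held both extremes outside the glycosaminoglycan enzymes. Ppt1 (chr4:122836242-122859175, plus strand), the palmitoyl-protein thioesterase, was at 91.3, 95.1 and 98.4 FPKM in control and at 27.3, 27.4 and 27.2 FPKM with RANKL. No library of either group came near the other, and the fall of 1.71 on the log2 scale was the largest among the members (SE 0.05, adjusted p = 1.06e-17). Cap1, transcribed from the other strand of this locus, had a log2 fold change of -0.74 and was called lower. Smpd1, the acid sphingomyelinase, and Psap, the precursor of the saposins, rose by 1.05 and 0.29 on the log2 scale, whereas the lysosomal phospholipase Pla2g15 fell by 0.96. The acid lipase Lipa was not called (-0.10).

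Among the 5 peptidase, nuclease and phosphatase members, Lgmn (chr12:102394084-102439813, minus strand), the asparaginyl endopeptidase legumain that processes cathepsins, was at 223, 233 and 268 FPKM in control and at 106, 113 and 108 FPKM with RANKL. This 0.481-fold level (log2 fold change -1.06, adjusted p = 9.76e-13) was accompanied by a like fall of the aspartic peptidase Napsa, from 30.5 ± 0.44 to 14.8 ± 0.58 FPKM (log2 fold change -0.96). Tpp1, the tripeptidyl peptidase, rose by 0.32 on the log2 scale. The nuclease Dnase2a and the phosphatase Acp2 were not called (0.13 and 0.06), Dnase2a being called higher under RLE size factors and DESeq2.

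Of the 5 mannose 6-phosphate sorting members 3 rose and 1 fell. Igf2r (chr17:12682406-12769664, minus strand), the cation-independent mannose 6-phosphate receptor, was at 21.0, 21.3 and 21.8 FPKM in control and at 68.6, 65.2 and 59.1 FPKM with RANKL (log2 fold change 1.68, SE 0.05, adjusted p = 9.75e-17). Its antisense partner Airn rose by 1.56 on the log2 scale at 2.44 FPKM on average. The cation-dependent receptor M6pr rose by 0.71 and Gnptab, the phosphotransferase subunit that makes the tag, by 1.34 on the log2 scale, while Nagpa, which uncovers the tag, fell by 0.49. Of the 15 membrane proteins, 3 rose and 8 fell, with a median of -0.36. The abundant glycoproteins Lamp1 and Lamp2 fell from 384 ± 32.9 to 281 ± 7.87 and from 58.2 ± 0.94 to 40.2 ± 1.35 FPKM (log2 fold changes -0.36 and -0.45), and Scarb2, an integral membrane protein of lysosomes, fell by 0.67 on the log2 scale. The tetraspanin Cd63 went the other way, from 56.0 ± 5.31 to 92.6 ± 5.53 FPKM (0.81). Its pseudogene Cd63-ps rose by 0.85, and near-identical sequence may split reads between the pair. Adaptor and coat members, which serve other membranes too, had 8 of 23 higher and 4 lower with a median of -0.03, led by the rise of Ap4b1 (0.86).

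**Figure D3:**
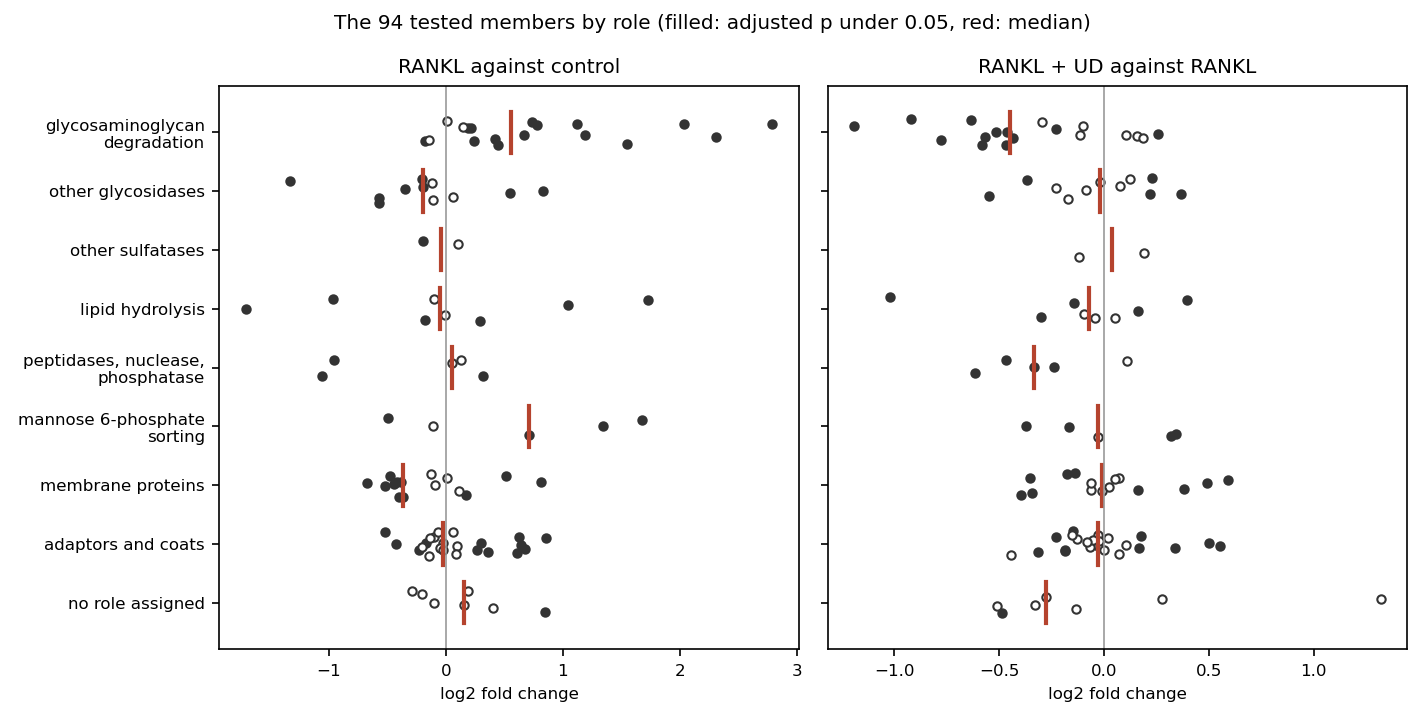
Each point is 1 of the 94 tested members, placed by its log2 fold change in RANKL against control and in RANKL + UD against RANKL and grouped by role, with filled points for an adjusted p under 0.05 and a red bar at the median of each role. The glycosaminoglycan-degrading members had medians of 0.56 and -0.45, and the membrane proteins of -0.36 and -0.01.

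The second comparison asked what UD changed in cells given RANKL. Of the 94 members, 17 rose and 33 fell, against 18.6% of all tested genes higher and 20.2% lower. The members' shares were 18.1% higher and 35.1% lower, and their median was -0.09 against 0.00 over all tested genes. Under total counts the split was 23 higher and 23 lower, and the share of all calls that were higher went from 48.0 to 66.2%. Among glycosaminoglycan-degrading members 1 of 18 rose and 11 fell, with a median of -0.45 (10 lower and 2 higher under total counts). The other 76 had 16 higher and 22 lower with a median of -0.06, which became 0.03 under total counts. This comparison and the first share the RANKL libraries, so that a library with a high or low value would push the 2 comparisons in opposite directions. Libraries with and without UD did not overlap in FPKM for 53 of the 94 members and for 6202 of all 11995 tested genes.

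Hyal1 was at 15.4, 15.4 and 14.0 FPKM with RANKL + UD. These levels lay between those of the control and RANKL libraries, 0.644-fold of the RANKL level (log2 fold change -0.63, SE 0.07, adjusted p = 4.08e-07). Hyal2 and Hyal3 fell as well, by 0.44 and 1.19 on the log2 scale, although Hyal3 passed the filter only through its RANKL libraries. Naa80 was not called (-0.30). Tmem202 was called lower (-0.92) but not by limma, and Tmppe was not called (0.19). Hexa stood at 192, 210 and 211 FPKM, below all RANKL libraries (log2 fold change -0.46, adjusted p = 2.61e-07). Gm2a was at 41.5, 40.4 and 41.2 FPKM, which was 0.493-fold of its RANKL level (log2 fold change -1.02, SE 0.05, adjusted p = 1.81e-12). The Hexa libraries overlapped the control libraries, and those of Gm2a did not.

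Among enzymes of heparan sulfate, 4 fell with UD, of which Idua had risen with RANKL and the other 3 had moved by at most 0.25 on the log2 scale. Idua was at 5.32, 5.33 and 6.13 FPKM with RANKL and at 3.4, 3.43 and 3.57 FPKM with RANKL + UD (log2 fold change -0.78, SE 0.10, adjusted p = 3.56e-06), and Dgkq lies on the opposite strand. Sgsh, Hgsnat and Naglu, which act in turn on the glucosamine residues, fell by 0.57, 0.52 and 0.58 on the log2 scale, and none of their RANKL + UD libraries overlapped a RANKL library. Hgsnat, the membrane-bound acetyltransferase, reached 10.6 ± 0.46 FPKM against 14.3 ± 0.85 with RANKL and 16.8 ± 0.82 in control. Glb1 fell by 0.23 and lost its call under total counts (-0.14, adjusted p = 0.0568 by edgeR's quasi-likelihood test) and by limma. Ids rose by 0.26 (14.8 ± 0.47 to 18.7 ± 0.73 FPKM, adjusted p = 0.00108). Arsb, Gusb and Galns, which act on sulfated chains, were not called, at log2 fold changes of -0.10, 0.11 and 0.16, and Gusb was called higher under total counts and by limma.

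Outside the glycosaminoglycan enzymes, several genes that had fallen with RANKL were higher with UD. Ppt1 was at 37.9, 38.1 and 38.4 FPKM (log2 fold change 0.40 against RANKL, SE 0.05, adjusted p = 1.07e-06), and Cap1 on its other strand was not called (0.02). Man2b1 rose to 8.99 ± 0.43 FPKM (0.37), Scarb2 from 12.5 ± 0.30 to 18.7 ± 0.69 FPKM (0.49), Fuca1 and Neu1 by 0.22 and 0.23, and Lamp1 by 0.16. The Lamp1 call was lost without RANKL replicate 1 (0.14, adjusted p = 0.0728 by edgeR's quasi-likelihood test) and without RANKL + UD replicate 3 (0.15, adjusted p = 0.0763). Napsa, Laptm5, Lamp2 and Pla2g15 were not called (0.11, 0.07, -0.06 and -0.10), Napsa being called higher under total counts and by limma.

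Lgmn did not turn back, and was at 74.3, 75.5 and 76.7 FPKM with RANKL + UD. It was lower in each of these libraries than in any RANKL library and lower there than in any control library (log2 fold change -0.62 against RANKL, adjusted p = 4.13e-08). Litaf, a late-endosomal membrane protein, likewise fell at both steps, from 34.2 ± 1.73 to 24.8 ± 0.71 and then 20.6 ± 0.53 FPKM. Of the 5 peptidase, nuclease and phosphatase members 4 fell with UD, including Dnase2a (-0.47), Acp2 (-0.33) and Tpp1 (-0.24). Gla fell by 0.55, Manba by 0.37 and Cd63 by 0.40 on the log2 scale. Psap and Smpd1 fell by 0.14 and 0.30, and both calls were lost under total counts, by limma and without some single libraries.

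Sorting genes went apart. M6pr (chr6:122308720-122317680, plus strand) was at 95.0, 94.4 and 91.6 FPKM in control, 142, 146 and 144 FPKM with RANKL and 193, 191 and 197 FPKM with RANKL + UD. Its groups were separate at each step and in the same direction (log2 fold change 0.34 for UD against RANKL, SE 0.04, adjusted p = 2.06e-06). Gnptab fell from 61.8 ± 0.76 to 50.6 ± 1.00 FPKM (-0.37). Igf2r was called lower by 0.17, but the call was lost under total counts and without RANKL replicate 1. Its libraries overlapped in FPKM, which like total counts takes no further scaling between libraries. Airn, antisense to Igf2r, rose by 0.65 to 4.05 FPKM on average. Cd164, a sialomucin of endosomes, rose from 16.3 ± 0.17 to 22.6 ± 0.87 FPKM (0.38), and the sorting receptor Sort1 rose by 0.59 at 1.47 FPKM. Sort1 passed the filter only through its RANKL + UD libraries, being at most 0.96 FPKM with RANKL. The small adaptor subunits Ap1s2 and Ap4s1 rose by 0.50 and 0.55, within an adaptor and coat role of 5 higher and 5 lower among 23 members.

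**Figure D4:**
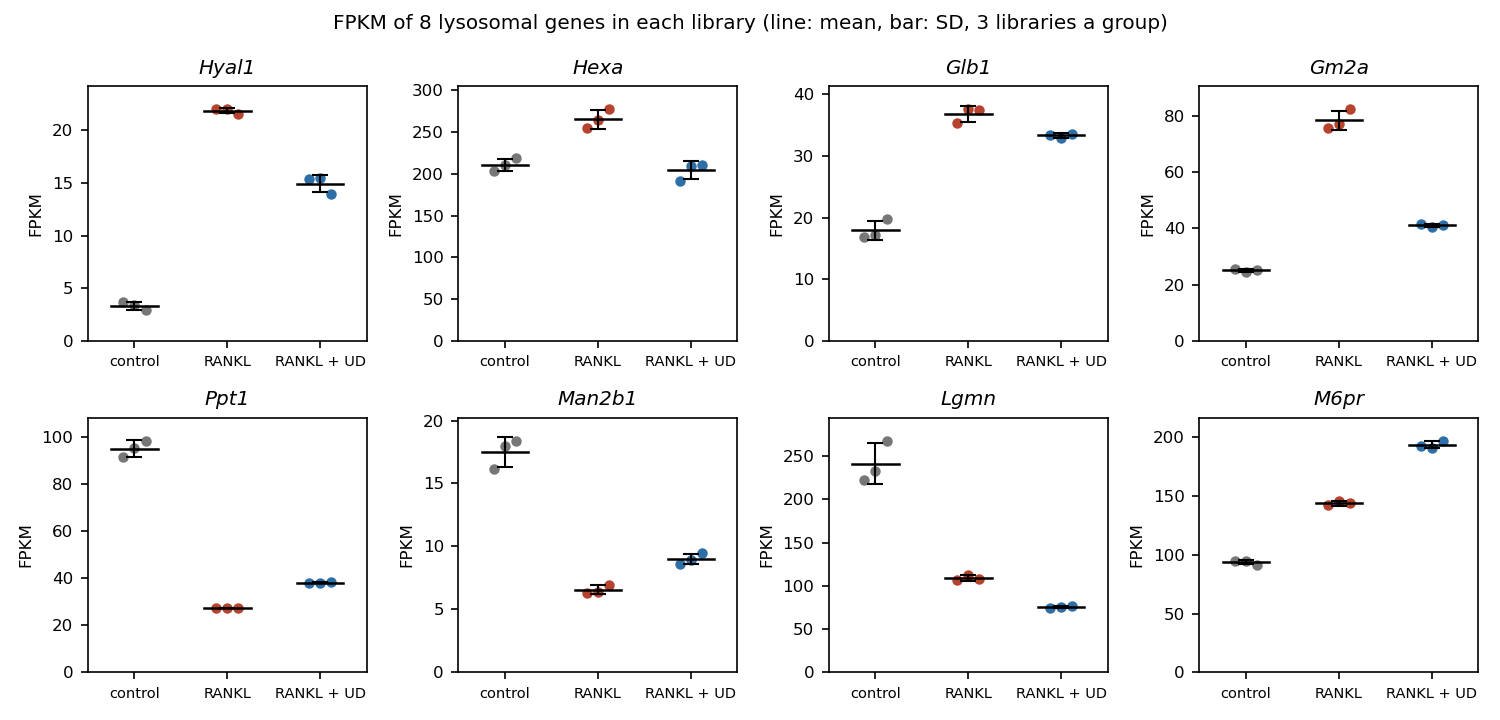
FPKM in each of the 9 libraries for 8 genes, with a line for the mean of 3 libraries and a bar for the SD. Hyal1, Hexa, Glb1 and Gm2a were highest with RANKL, Ppt1 and Man2b1 were highest in control and lowest with RANKL, Lgmn was lower and M6pr higher at each step.

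The third comparison set RANKL + UD against control, to show which differences remained when both were present. Of the 94 members 31 rose and 29 fell, against 26.7% of all tested genes higher and 27.3% lower, with a median of -0.05 against -0.00. Glycosaminoglycan-degrading members had 9 of 18 higher and 3 lower (median 0.29), and the other 76 had 22 higher and 26 lower (median -0.09). Hyal1 was 4.47-fold above control (log2 fold change 2.16, SE 0.08, adjusted p = 3.87e-15), followed by Naa80 (2.01), Hyal2 (1.11), Glb1 (0.90), Tmppe (0.63) and Gusb (0.32). Hyal3 was called higher (0.85, adjusted p = 0.0417), but the call was lost when any of 5 of the 6 libraries of this comparison was left out (0.61 to 0.94), the exception being RANKL + UD replicate 3. Hgsnat, Naglu and Sgsh were below control, by 0.66, 0.43 and 0.32 on the log2 scale, and the Naglu call was lost without control replicate 3 (-0.24, adjusted p = 0.0533). Hexa and Idua were not called (-0.05 and -0.10). RANKL + UD and control libraries did not overlap in FPKM for 66 of the 94 members and for 7182 of all 11995 tested genes.

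Among the other members, M6pr was 2.07-fold and Igf2r 2.85-fold above control, and Gnptab, Sort1, Smpd1, Gm2a and Cd164 were higher by 0.97, 1.11, 0.74, 0.71 and 0.56 on the log2 scale. Lgmn was at 0.314-fold of control (log2 fold change -1.67, adjusted p = 6.85e-16), the largest fall, followed by Ppt1 (-1.32), Pla2g15 (-1.06), Man2b1 (-0.96), Napsa (-0.84) and Litaf (-0.73). Of the 15 membrane proteins 9 were lower and 3 higher, with Lamp1 at -0.20, Lamp2 at -0.51 and Scarb2 at -0.18. The Scarb2 call was lost without control replicate 2 (adjusted p = 0.0502 by edgeR's quasi-likelihood test) and without RANKL + UD replicate 3 (adjusted p = 0.0549).

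Read over the 3 comparisons, the median of the glycosaminoglycan-degrading members differed from that of the other members by 0.64 for RANKL against control, -0.39 for RANKL + UD against RANKL and 0.38 for RANKL + UD against control. These differences are descriptions, since no test over a chosen list was made. The genes that the rule left out of the lysosome pathway, among them the cathepsins and the vacuolar ATPase subunits that include osteoclast markers, had 17 of 27 higher and 8 lower with RANKL (median 0.61) and 1 higher and 21 lower with UD (median -0.35). The median of the glycosaminoglycan-degrading members (0.56 and -0.45) was thus near that of these genes in both comparisons, and the median of the other members (-0.08 and -0.06) was nearer 0.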

How the data were processed

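RNA of RAW264.7 cells was measured in 9 libraries (3 control, 3 RANKL, 3 RANKL + UD), poly(A)-selected, strand-specific and paired-end per the labels. Groups came from the sample labels, and the columns headed as the model were taken as RANKL libraries because the study uses that word for RANKL-induced cells. The deposited counts are whole reads per gene without normalization. For the deposited FPKM, the authors divided the counts by gene length and library total, and recomputing them gave the deposited value for 100% of genes. The authors used DESeq2, and the aligner, counting tool and annotation are not given in the sources used here. The labels name mm10, but only 1435 of 52073 shared genes have the same coordinates in the table as in GENCODE M21 (GRCm38), so the gene coordinates printed are those of GENCODE by identifier.

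Counts were tested with edgeR 4.0.16 in R 4.3.3 (glmQLFit, glmQLFTest, TMM, 9 libraries in one fit, Benjamini-Hochberg over the 11995 genes whose FPKM reached 1 in 3 or more libraries). All adjusted p-values in the report are from this test unless another is named, are two-sided, and are adjusted over all tested genes. Called, rose and fell mean an adjusted p under 0.05. The procedure was tested on simulated data. Replicates differed by more than counting noise, with chi-square per degree of freedom of 2.98 to 9.54, and the common dispersion was 0.00401. The members, role lists and marker lists were chosen with earlier results of these data known, and no p-value over a list is given. Genes named under the rule are the glycosaminoglycan-degrading members, a list of well-known lysosomal genes, and in each comparison the 6 other members that rose most and the 6 that fell most among called genes whose libraries do not overlap. Overlap of libraries was judged on the deposited FPKM. Further members (Manba, Fuca1, Neu1, Nagpa, Acp2, Cln3, Gnptg and Sumf1) were named after their values were seen. Alternatives were RLE size factors, total counts, no filter, DESeq2 1.42.0, limma 3.58.1 on log2(FPKM + 1) and log2(FPKM + 0.1), a fit to 6 libraries alone, a replicate block, omission of each library, and omission of adaptor and coat members. Leaving out neighbour genes, pseudogenes and predicted genes was added after seeing the data. Promoter windows and their sequence are from RefSeq (GRCm38.p6). Of the tested members, 31 overlap another tested gene, 10 of them on the same strand. The labels give no batch. The Entpd4 gene is listed at 0. Single results for some members are not reported here, though all members enter the counts, medians and sums. Metabolite and animal data were not analysed here.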

Additional observations from a re-analysis of the deposited data

How the results depend on the processing

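Counts of members called and the difference between the medians of the glycosaminoglycan-degrading and other members were recomputed 144 times, and 131 values stayed within 1.5 times the reported count or within 1 SD between replicates (0.04 on the log2 scale) of the reported difference. Counts within that bound still moved under total counts and by limma on log2(FPKM + 1), from 17 to 23 and 24 members higher with UD against RANKL, from 33 to 23 lower under total counts, and from 26 to 35 and 34 lower with RANKL. By limma on log2(FPKM + 1) the difference of medians was 0.54 for RANKL against control and 0.29 for RANKL + UD against control, and 21 members were lower with UD against RANKL, as by limma on log2(FPKM + 0.1) (21). Without adaptor and coat members the difference was 0.42 for RANKL + UD against control. Without neighbour genes, pseudogenes and predicted genes it was 0.51 for RANKL against control and 0.23 for RANKL + UD against control. Leaving out each library gave 0.56 to 0.72 and 0.29 to 0.43 for these, and -0.42 to -0.37 for UD against RANKL. In that comparison 12 to 18 members were higher and 27 to 32 lower. The cause of these shifts was not tested, beyond the smaller number of genes where members were left out.

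Same-numbered libraries showed little common deviation (correlations of deviations -0.02 to 0.10, against -0.10 to 0.05 for different numbers). Not every library correlated best with its own number. Such weak correlations cannot decide whether the numbers mark a shared culture or day, so that pairing remains unknown. With the replicate block 36 members rose and 26 fell with RANKL, 17 rose and 35 fell with UD against RANKL, and 31 and 30 were called against control, with differences of medians of 0.64, -0.39 and 0.37. Over 1974 recomputed values of the 47 named genes, 1879 kept their call or its absence, 58 lost a call, 37 gained one, and 0 that were called turned direction, and 28 of 141 gene results changed a call in at least 1 setting. Under total counts the median of all genes was -0.11 for RANKL against control and 0.09 for UD against RANKL. Calls of genes near an FPKM of 1, such as Hyal3, Tmem202 and Sort1, rest on few reads.

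Single libraries decided further calls. For RANKL against control, calls were gained by Dnase2a without control replicate 3 (0.19) or RANKL replicate 1 (0.17), by Lipa without control replicate 1 (-0.13) and by Hgsnat without RANKL replicate 2 (-0.20). Calls were lost there by Sgsh without control replicate 2 (0.21) or RANKL replicate 2 (0.19) and by Tmppe without control replicate 1 (0.29) or RANKL replicate 2 (0.32). For UD against RANKL, calls were gained by Gusb without RANKL replicate 3 (0.14) and by Naa80 without RANKL replicate 1 (-0.40), and lost by Tmem202 without RANKL replicate 2 or RANKL + UD replicate 2 (both -0.73), by Psap without RANKL + UD replicate 2 or 3 (-0.14 and -0.13) and by Smpd1 without any of 4 libraries (-0.31 to -0.24).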

Other observations

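Some genes of lysosomal sugar breakdown lie outside the annotation that chose the members. Hpse, the heparanase that cuts heparan sulfate chains, was at 1.11, 0.5 and 0.48 FPKM in control, 1.01, 1.21 and 0.7 FPKM with RANKL and 0.38, 0.37 and 0.46 FPKM with RANKL + UD. It was lower with UD against RANKL (log2 fold change -1.36, SE 0.33, adjusted p = 0.0026 by edgeR's quasi-likelihood test, lower in 3 of 3 libraries) and was not called with RANKL (0.56). Hpse passed the filter only through control and RANKL libraries. It had 21 to 28 reads with RANKL + UD and 82 at most with RANKL, and it was not followed in the alternatives, so its fall carries little weight. Engase, a cytosolic glycosidase that frees N-glycans, fell with RANKL (-0.77) and was not called with UD against RANKL (0.18). Arsk and Man2b2 were not called in any comparison, and Arsg and Hpse2 did not pass the filter. These genes were looked at because they are known for such roles, after values of the members had been seen.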
